A study of Mus musculus with 11 samples.

Results

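The Zscan4 and Tcstv genes of the mouse lie in similar copies, some of them near-identical, and the DNA depth over them was measured in 11 low-coverage whole-genome libraries of mouse embryonic stem cells (mESC). The members were all bins of about 50 kb whose midpoint lies in the Zscan4 stretch of chromosome 7 or in the last stretch of chromosome 13, which holds the Tcstv genes. This gave 31 of 52958 bins, 16 in the Zscan4 stretch and 15 in the Tcstv stretch, and with them the genes Zscan4c, Zscan4d, Zscan4f, Tcstv1 and Tcstv3. In mm10, the Zscan4 bins ran from base 10685106 to base 11484001 and the Tcstv bins from base 119595506 to base 120321639. A length of 100 kb without bins lies before the Tcstv bins. The value of a bin is its relative depth, which is its read depth divided by the median depth of the autosomal bins of the same library. A relative depth of 1 is thus the level of most of the genome.

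Ctrl cells carry Cre/ERT2 and Rosa26-LSL-H2b-Egfp, a Cre-dependent green reporter. Tet iTKO cells carry the same alleles and floxed (fl/fl) copies of Tet1, Tet2 and Tet3, which tamoxifen deletes through Cre/ERT2. Both genotypes gave 1 library before treatment, 1 library after acute treatment (1 µM tamoxifen for 2.5 days, then 4 days of culture) and 3 libraries of long-term monoclonal populations kept for 30 days. The pre-treatment Tet iTKO cells had not been given tamoxifen. The Dnmt TKO group, 1 long-term library, lacks Dnmt1, Dnmt3a and Dnmt3b from the germline and was not induced. All cells had been grown on feeder fibroblasts in 2i medium and sorted for live CD326+ Thy1.2- cells, with the green reporter as a further gate outside the Dnmt TKO group. The labels give this gate for all Ctrl and Tet iTKO libraries, the untreated ones included, although the reporter needs Cre. The Cre/ERT2 transgene is driven by the human ubiquitin C promoter. The floxed alleles were made in C57BL/6NTac cells, the Ctrl embryos came from crosses with C57BL/6J, and the Dnmt TKO cells are a line described earlier. Genotype and line therefore cannot be told apart.

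Zscan4 proteins carry a SCAN domain and zinc fingers. They are made in 2-cell embryos and, in short bursts, in a small fraction of mESC, the 2-cell-like cells, where they have been linked to telomere lengthening and genome stability. Zscan4c is the copy best known from mESC and Zscan4d the copy best known from the embryo. The Tcstv genes (2-cell-stage variable group) are short genes switched on in the same state, and like Zscan4 they are targets of the transcription factor Dux. The measurements here are of DNA and not of RNA, so they bear on copy number and not on expression. Each value is the depth of a bin of about 50 kb, of which a gene is a small part. Zscan4c is 4803 bases long and Tcstv1 1398 bases. The value of a gene's bin is therefore not a count of the copies of that gene.

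How much the copies resemble each other limits what short reads can tell of them. The first 200 coding bases of the members are shown for this reason, from the RefSeq annotation on GRCm38, the assembly also called mm10. Capitals mark bases that differ from Zscan4c in the Zscan4 genes and from Tcstv1 in Tcstv3. The positions are chr7:11006556-11006755 (plus strand) for Zscan4c, chr7:11165149-11165348 (minus strand) for Zscan4d, chr7:11398749-11398948 (plus strand) for Zscan4f, chr13:119893895-119894094 (minus strand) for Tcstv1 and chr13:120317567-120317766 (plus strand) for Tcstv3.
Zscan4c: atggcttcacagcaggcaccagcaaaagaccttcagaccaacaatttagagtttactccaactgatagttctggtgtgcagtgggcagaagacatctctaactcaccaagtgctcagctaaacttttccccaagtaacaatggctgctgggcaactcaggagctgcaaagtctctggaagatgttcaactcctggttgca
Zscan4d: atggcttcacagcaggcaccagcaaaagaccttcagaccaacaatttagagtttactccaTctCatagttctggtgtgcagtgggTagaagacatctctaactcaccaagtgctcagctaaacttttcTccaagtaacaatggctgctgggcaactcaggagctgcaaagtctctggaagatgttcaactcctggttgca
Zscan4f: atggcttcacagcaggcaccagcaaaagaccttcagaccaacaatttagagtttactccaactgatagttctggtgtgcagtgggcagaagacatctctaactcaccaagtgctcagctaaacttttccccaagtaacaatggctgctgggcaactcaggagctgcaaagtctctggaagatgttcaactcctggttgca
Tcstv1: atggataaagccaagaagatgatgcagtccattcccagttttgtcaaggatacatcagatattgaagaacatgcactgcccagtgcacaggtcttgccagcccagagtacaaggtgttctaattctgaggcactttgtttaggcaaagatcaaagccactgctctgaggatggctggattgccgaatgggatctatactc
Tcstv3: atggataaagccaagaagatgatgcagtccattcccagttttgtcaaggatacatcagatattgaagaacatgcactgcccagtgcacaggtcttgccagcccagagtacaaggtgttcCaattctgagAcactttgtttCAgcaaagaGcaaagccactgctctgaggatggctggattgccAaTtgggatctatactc

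Zscan4c and Zscan4f were identical over these 200 bases, and over the whole coding sequence of 1521 bases they differed at 6 positions (99.6% identity). Zscan4d differed from either of them at 35 positions (97.7%). Tcstv1 and Tcstv3 differed at 27 positions and 6 gap positions of 516 (93.6%). Of the 50-base words of the Zscan4c coding sequence, 83.4% also occur in Zscan4f and 42.3% in Zscan4d. A read from such a word fits several copies equally well, and the aligner places it in one of them.

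The stretches as a whole are repeated too. The length of a read is not settled: the low deposited values step by 50 bases, while the study's methods state that reads of at least 70 bases were mapped, so both word lengths were counted. In the reference, 38.6% of the 50-base words of the Zscan4 stretch and 45.9% of those of the Tcstv stretch occur once in the genome, against 65.0% and 87.0% in the flanks of 1 Mb. Over the full gene the unique share was 10.2% in Zscan4c, 50.8% in Zscan4d, 3.97% in Zscan4f, 58.9% in Tcstv1 and 49.7% in Tcstv3. With words of 70 bases the unique share was 48.3% in the Zscan4 stretch, 52.0% in the Tcstv stretch, 15.1% in Zscan4c, 65.6% in Zscan4d, 5.84% in Zscan4f, 68.9% in Tcstv1 and 61.7% in Tcstv3. The order of the genes was the same at both lengths. The Zscan4 stretch holds a direct repeat: bins 4 to 7, with Zscan4b and Zscan4c, have between 41.3% and 69.1% of their words in the same orientation in the matching bin of bins 12 to 15, with Zscan4e and Zscan4f. The Tcstv stretch holds an inverted repeat in which bin 6 pairs with bin 13, bin 7 with bin 12, bin 8 with bin 11 and bin 9 with bin 10. The share of the first bin's words found inverted in its partner was 59.7%, 53.0%, 71.8% and 80.6% in these 4 pairs. The longest identical run was 1265 bases between bins 6 and 13 and 7170 bases between bins 9 and 10. From each of these runs 120 bases are shown, because within the inverted repeat the Dnmt TKO library was lowest in the former and highest in the latter. The first lies at chr13:119856267-119856386 (plus strand) and again at chr13:120204835-120204954 (minus strand), and the second at chr13:119986459-119986578 (plus strand) and chr13:120075950-120076069 (minus strand).
Bins 6 and 13: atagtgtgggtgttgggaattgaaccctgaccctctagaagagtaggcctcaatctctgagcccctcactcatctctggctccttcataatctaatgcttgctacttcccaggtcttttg
Bins 9 and 10: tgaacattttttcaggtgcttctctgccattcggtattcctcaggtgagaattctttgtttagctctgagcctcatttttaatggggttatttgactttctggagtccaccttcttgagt

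The libraries held between 555 and 812 megabases, and the median autosomal bin held 215 to 315 steps of 50 bases, which is its number of reads if a read counted for 50 bases. With longer reads the number would be lower. A bin varied between long-term libraries of a group by 0.084 on the log2 scale (median SD over bins). No bin had the same relative depth in any pair of long-term libraries of a group, and each library was taken as 1 sample. Taken as reads of 50 bases, the pairs gave a chi-square over its degrees of freedom of 1.02 to 1.15, close to the 1 of counting noise alone, so this does not show that they are separate clones. The labels do not say which clone each library came from, a group may hold fewer clones than libraries, and p-values measure only the spread between these libraries, which may be technical. Chromosome X was at 0.560 to 0.592 in all 11 libraries. Chromosome Y was at 0.0269 to 0.0381 in the 4 early libraries and at 0.457 to 0.558 in the 7 long-term libraries.

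The Zscan4 stretch lay close to 1 in Ctrl cells and a little higher in Tet iTKO cells. Its mean relative depth was 0.958 in pre-treatment Ctrl, 0.952 in acute Ctrl and 0.968, 0.939 and 0.976 in the long-term Ctrl libraries. It was 0.970 in pre-treatment Tet iTKO, 1.06 in acute Tet iTKO and 1.01, 1.06 and 1.05 in the long-term Tet iTKO libraries. All 3 long-term Tet iTKO libraries and the acute one lay above all 5 Ctrl libraries, while the pre-treatment Tet iTKO library lay inside the Ctrl range of 0.939 to 0.976. How often other stretches of the genome showed this order was not counted. The long-term means were 0.961 ± 0.0196 (SD, n = 3) and 1.04 ± 0.0237 (SD, n = 3), a difference of 0.0788 or 8.20%, with p = 0.1 in an exact two-sided permutation test, the smallest p that 3 libraries against 3 can give.

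Taken as a whole, the flanks of the Zscan4 stretch did not show this gap. The 20 bins on the centromeric side differed by 0.0171 between the long-term groups (exact permutation p = 0.3) and the 20 bins on the telomeric side by 0.00308 (exact permutation p = 0.8). The telomeric flank is not free of Zscan4 loci: its bin 1 holds Zscan4-ps2 and its bin 3 Zscan4-ps3. With the shorter words their unique share was 9.11% and 30.1%, so the flank may share reads with the stretch. Bin 1 was higher in long-term Tet iTKO by 0.13 ± 0.071 (log2, SE), without overlap, and bin 3 by 0.02 ± 0.072, with overlap. Neither passed (limma adjusted p = 0.857 and 0.989). Divided by the flanks, the stretch differed by 0.0752 between the long-term groups. On that scale pre-treatment Tet iTKO was at 1.04, above the Ctrl range of 0.967 to 1.01. The autosomes were also divided into 2987 stretches of 16 bins (a few of 15) and fitted with limma. The Zscan4 stretch was higher in long-term Tet iTKO by 0.11 ± 0.021 (log2, SE, limma adjusted p = 0.0126), and 20 of the 2987 stretches (0.67%) passed. At an unadjusted limma p under 0.05, 440 of the 2987 stretches (14.7%) differed in either direction, so smaller shifts of whole stretches were common between these groups. The call was lost without long-term Ctrl replicate 1 (adjusted p = 0.0673), without Ctrl replicate 2 (0.0639) and without Tet iTKO replicate 3 (0.0623). In the fit of 10 libraries it passed in the long-term groups (adjusted p = 0.028, where 0.569% of stretches passed) and not in the early ones (0.084, limma adjusted p = 0.367, where 0.368% passed). The early contrast takes pre-treatment Tet iTKO cells, whose Tet genes had not been deleted, together with acute ones.

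**Figure D1:**
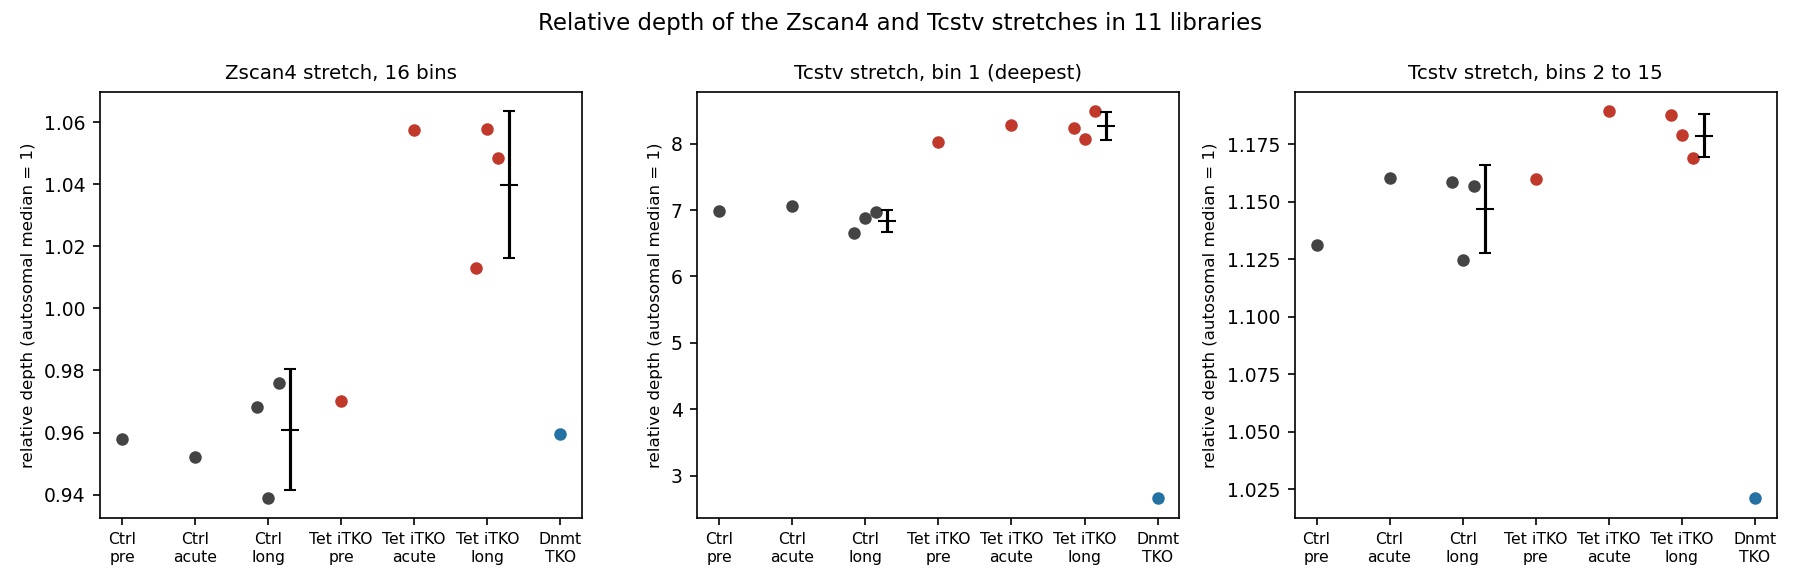
Relative depth (y axis, autosomal median = 1, axis not starting at 0) by group and stage (x axis) for the Zscan4 stretch, for bin 1 of the Tcstv stretch and for its bins 2 to 15. Each point is 1 library, and bars are the mean and SD of 3 long-term libraries. The Tet iTKO libraries sit above all Ctrl libraries in bin 1 of the Tcstv stretch (8.03 to 8.49 against 6.65 to 7.06), and the Dnmt TKO library sits far below at 2.66.

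In single bins of the Zscan4 stretch the shift was small and spread over the stretch. Of 16 bins, 15 had a positive log2 difference between the long-term groups, against 50.1% of the 47924 autosomal bins tested. The median over the 16 bins was 0.13, against 0.00 over all bins, and the range was -0.07 to 0.24. In 7 of the 16 bins all 3 long-term Tet iTKO libraries lay above all 3 long-term Ctrl libraries, which happened in 5.75% of all bins. The opposite order, seen in 5.56% of all bins, occurred in none of the 16. No bin passed limma's test at an adjusted p of 0.05, where 65 of 47924 bins (0.136%) did, nor in the fit of 10 libraries, where 66 bins (0.138%) did. At an unadjusted p of 0.05, 7 of the 16 bins were higher in Tet iTKO, against 2.87% of all bins, and none was lower, against 3.21%. The 16 bins adjoin, and those of the direct repeat share words. They are thus not independent, and 1 shift of the whole stretch would move them together. In data simulated with only the counting noise of 50-base reads, 54% of bins changed by 0.3 (log2) were recovered and 100% of those changed by 0.5. The differences seen here, at most 0.24, were below the smallest size simulated. How often they would be called in real libraries was not tested. Among the flanks, 10 of 20 and 11 of 20 bins had a positive difference.

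The bins of Zscan4c, Zscan4d and Zscan4f differed in sign and in overlap. The bin of Zscan4c (bin 7) was at 0.934, 1.01 and 1.03 in long-term Ctrl and at 1.05, 1.11 and 1.09 in long-term Tet iTKO. These groups did not overlap, but the difference of 0.13 ± 0.072 (log2, SE) did not pass (adjusted p = 0.86, limma). The early libraries of that bin did not follow: pre-treatment and acute Ctrl were at 0.938 and 0.898, and pre-treatment and acute Tet iTKO at 0.905 and 0.932. The bin of Zscan4d (bin 10) was at 0.956, 1.01 and 1.03 in long-term Ctrl and at 1.05, 1.16 and 0.968 in long-term Tet iTKO, so that the groups overlapped. The bin of Zscan4f (bin 15) was at 1.04, 0.942 and 1.08 in long-term Ctrl and at 0.898, 0.997 and 1.01 in long-term Tet iTKO. It was the bin of the stretch with a negative difference, -0.07 ± 0.075 (log2, SE), and the one with the lowest share of unique words, 11.5%.

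The other Zscan4 loci of the stretch gave a similar picture. Zscan4a, annotated as an unprocessed pseudogene, lies in bin 3, which was at 0.908 ± 0.0528 in long-term Ctrl and 1.04 ± 0.0366 in long-term Tet iTKO (SD, n = 3), a log2 difference of 0.20 that did not pass (adjusted p = 0.69, limma). Bins 5 with Zscan4b, 8 with Zscan4-ps1 and 13 with Zscan4e differed by 0.01, 0.06 and 0.08. The largest difference of the stretch, 0.24 ± 0.074, was in bin 4, which holds no protein-coding gene (adjusted p = 0.48, limma). The deepest bin over all libraries was bin 2 (mean 1.02) and the shallowest was bin 16 (mean 0.957), so the whole stretch stayed near the autosomal level in spite of its repeats. By repeat unit, bins 4 to 7 were at 0.962 ± 0.0194 in long-term Ctrl and 1.05 ± 0.0272 in long-term Tet iTKO, and bins 12 to 15 at 0.982 ± 0.0643 and 1.05 ± 0.0599 (SD, n = 3). The 8 bins outside both units were at 0.950 ± 0.0181 and 1.03 ± 0.0128. The size of the gap was thus of the same order within and outside the repeat.

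**Figure D2:**
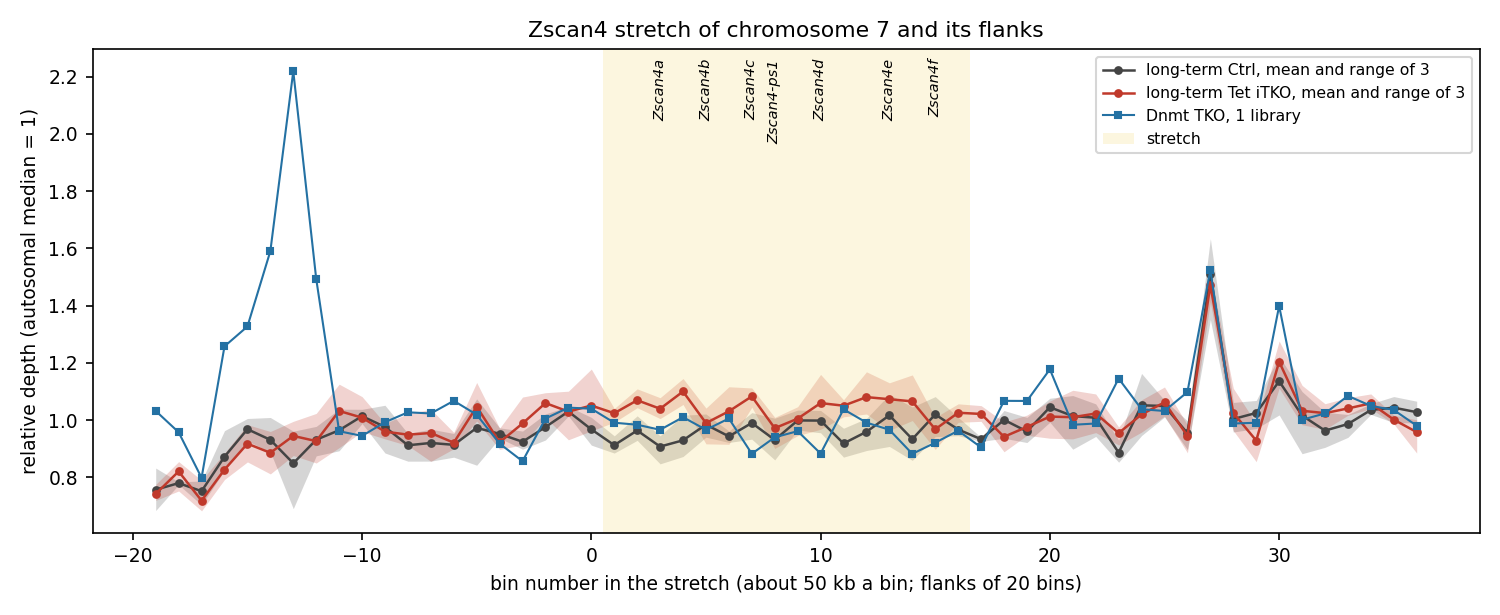
Relative depth (y axis, autosomal median = 1) along the Zscan4 stretch (shaded, bins 1 to 16) and its flanks of 20 bins (x axis, bin number). Lines and bands are the mean and range of the 3 long-term libraries of Ctrl and of Tet iTKO, squares are the Dnmt TKO library, and gene names stand above their bins. Within the stretch the Tet iTKO mean lies above the Ctrl mean in 15 of 16 bins, and the Dnmt TKO library stays near 1 there but reaches 2.22 in the centromeric flank.

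The mean depth of the Tcstv stretch was above 1 in every library, and its first bin raised it most. Without that bin the mean was still 1.02 in Dnmt TKO and 1.12 to 1.19 in the other 10 libraries. The median over the 15 bins of the stretch was 0.798 in Dnmt TKO and 1.08 to 1.16 in the other 10 libraries. Its mean relative depth was 1.52 in pre-treatment Ctrl, 1.55 in acute Ctrl and 1.53, 1.51 and 1.54 in the long-term Ctrl libraries. It was 1.62 in pre-treatment Tet iTKO, 1.66 in acute Tet iTKO and 1.66, 1.64 and 1.66 in the long-term Tet iTKO libraries. All 5 Tet iTKO libraries lay above all 5 Ctrl libraries, but how often other stretches showed this order was not counted. The long-term means were 1.53 ± 0.0181 and 1.65 ± 0.0110 (SD, n = 3), a difference of 0.125 or 8.18% with the smallest possible p of 0.1 in the exact permutation test. Among the 2987 stretches of the autosomes, the Tcstv stretch was higher in long-term Tet iTKO by 0.11 ± 0.017 (log2, SE, limma adjusted p = 0.00213), where 0.67% of stretches passed. In the early libraries it was higher by 0.09 ± 0.021, which did not pass (limma adjusted p = 0.0667, where 0.368% passed). The flank of 20 bins before it also stood higher in long-term Tet iTKO, at 1.11 ± 0.0138 against 1.07 ± 0.0114 (SD, n = 3), with p = 0.1 in the exact permutation test.

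This difference came mostly from 1 bin. Bin 1, from base 119595506 to base 119643913, was by far the deepest of the 31 bins and overlaps Ccl28, a chemokine gene, and Tmem267, and no Tcstv gene. It was at 6.99 in pre-treatment Ctrl, 7.06 in acute Ctrl and 6.65, 6.88 and 6.98 in long-term Ctrl. It was at 8.03 in pre-treatment Tet iTKO, 8.28 in acute Tet iTKO and 8.24, 8.07 and 8.49 in long-term Tet iTKO. All Tet iTKO libraries lay above all Ctrl libraries, but only the long-term stage has more than 1 library per genotype. The share of all bins with this order was not counted. The gap was also seen before tamoxifen was given, between 1 library of each genotype. The long-term means were 6.84 ± 0.167 and 8.26 ± 0.209 (SD, n = 3), a log2 difference of 0.27 ± 0.071 (SE), or 1.21-fold. With limma's spread moderated towards a prior common to all bins, it did not pass (adjusted p = 0.191, limma). With a spread that follows the depth, in limma's trended and robust form, it passed in the long-term libraries (adjusted p = 4.59e-08) and in the early libraries of the 10-library fit (log2 difference 0.21, adjusted p = 0.00205), and no other member bin did. Under that setting 0.144% of all bins passed in the long-term libraries, 0.152% in the long-term contrast of the 10-library fit and 0.1% in its early contrast. Although its depth was near 7, 76.6% of its 50-base words occur once in the reference.

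Without bin 1 the Tcstv stretch was at 1.15 ± 0.0191 in long-term Ctrl and 1.18 ± 0.00933 in long-term Tet iTKO (SD, n = 3). The difference was 0.0319 (exact permutation p = 0.1), and the call among the autosomal stretches was lost (log2 difference 0.04, limma adjusted p = 0.324). The median over the 15 bins differed by 0.0203 (exact permutation p = 0.5). The bin on the other side of the length without bins, the last of the flank, showed a gap like that of bin 1. It was at 1.49 and 1.55 in early Ctrl, 1.36, 1.41 and 1.41 in long-term Ctrl, 1.54 and 1.69 in early Tet iTKO and 1.72, 1.54 and 1.74 in long-term Tet iTKO (log2 difference in long-term libraries 0.26 ± 0.073, limma adjusted p = 0.33). Early Ctrl and early Tet iTKO overlapped in that bin.

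The bins that hold the Tcstv genes did not separate the long-term groups. The bin of Tcstv1 (bin 7) was at 1.19, 0.992 and 1.13 in long-term Ctrl and at 0.926, 1.22 and 1.12 in long-term Tet iTKO, a log2 difference of -0.02 ± 0.082 (SE). The bin of Tcstv3 (bin 15) was at 1.85, 2.14 and 2.02 in long-term Ctrl and at 2.11, 2.24 and 2.08 in long-term Tet iTKO, a log2 difference of 0.10 ± 0.074 (adjusted p = 0.91, limma). It was the second deepest member bin, near 2 in all libraries, from 1.84 in pre-treatment Ctrl to 2.39 in Dnmt TKO, and in it 64.1% of the words are unique. The shallowest bin of the stretch was bin 5 (mean 0.986), which overlaps Zfp131, AF067063 and D13Ertd608e. It was at 0.926, 0.903 and 0.896 in long-term Ctrl and at 1.01, 1.11 and 1.01 in long-term Tet iTKO, without overlap, but at 1.15 and 1.05 in early Ctrl, within or above the Tet iTKO values (long-term log2 difference 0.19 ± 0.072, limma adjusted p = 0.69). Of the 15 Tcstv bins, 11 had a positive difference, against 50.1% of all bins. In 3 of them Tet iTKO lay above Ctrl without overlap (5.75% of all bins), and 2 had an unadjusted p under 0.05 (6.08%). The Tcstv bins adjoin and share words too, so these counts are not of independent bins. The arms of the inverted repeat (bins 6 to 8 and 11 to 13) were at 1.07 ± 0.0485 in long-term Ctrl and 1.11 ± 0.0287 in long-term Tet iTKO, and the centre (bins 9 and 10) at 1.03 ± 0.0521 and 1.03 ± 0.0618 (SD, n = 3). Neither difference was larger than the spread between libraries (exact permutation p = 0.4 and p = 1).

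**Figure D3:**
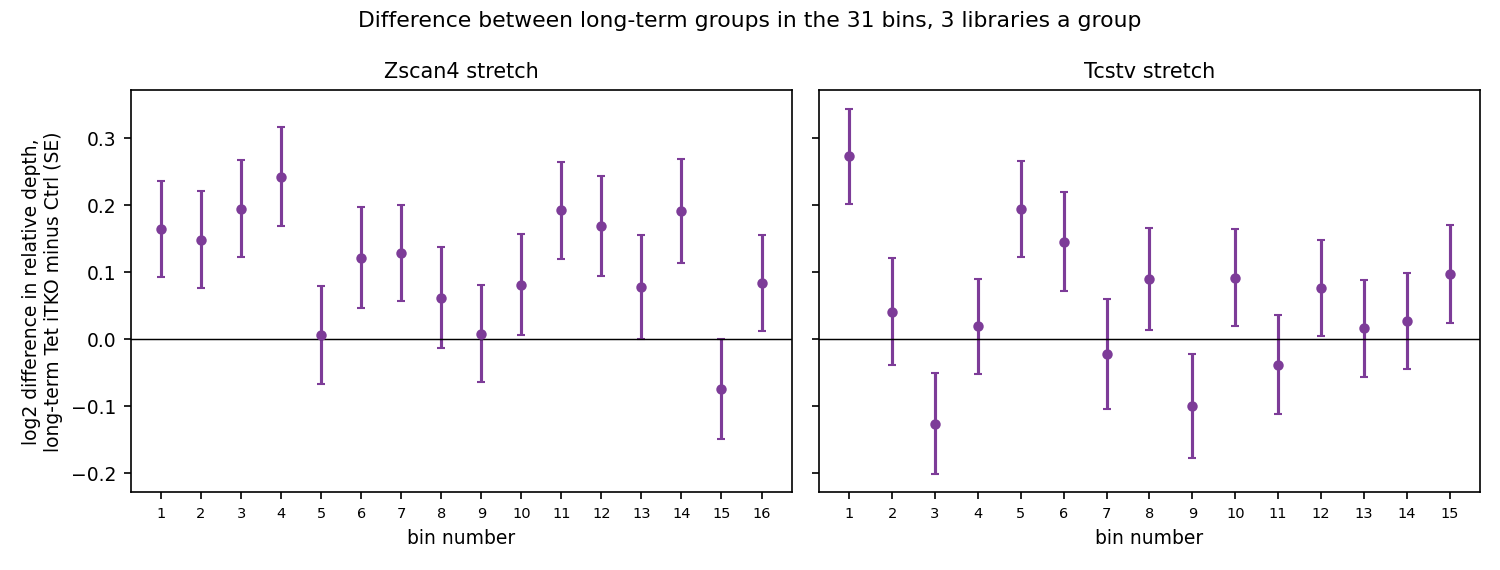
Log2 difference in relative depth, Tet iTKO minus Ctrl, in the long-term libraries (y axis, points with SE from the limma fit, 3 libraries a group) in each bin of the Zscan4 and Tcstv stretches (x axis, bin number). Points lie above 0 in 15 of 16 Zscan4 bins and 11 of 15 Tcstv bins, and the highest, 0.27, is bin 1 of the Tcstv stretch.

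Long-term and early libraries differed in neither stretch beyond the spread. The Zscan4 stretch was 0.0160 higher in the long-term than in the early libraries, averaged over both genotypes (p = 0.46, exact permutation test within genotypes with 100 splits). The Tcstv stretch differed by -0.000329 (p = 0.98, same exact permutation test). By genotype, the Zscan4 difference was 0.00608 in Ctrl and 0.0260 in Tet iTKO, and the Tcstv difference was -0.0118 in Ctrl and 0.0111 in Tet iTKO. In the fit of 10 libraries no member bin passed for long-term minus early in Ctrl (43 of 47924 bins, 0.0897%, did) or in Tet iTKO (18 bins, 0.0376%). None passed for the difference between the genotypes in long-term minus early (40 bins, 0.0835%) or for Tet iTKO minus Ctrl in the early libraries (32 bins, 0.0668%). At an unadjusted p of 0.05 these contrasts held 3, 3, 2 and 4 of the 31 member bins, against 5.25%, 6.21%, 5.11% and 5.18% of all bins. Nor did either stretch pass among the 2987 stretches for the stage contrasts in Ctrl (0.569% passed) and Tet iTKO (0.368%) or for their difference (0.469%, limma adjusted p = 0.97 for both stretches). The genotypes were thus not shown to differ in long-term minus early. The early libraries also had almost no chromosome Y, and stage and the depth of chromosome Y cannot be told apart. Long-term minus early may therefore compare different cell populations, and need not be a change over time in the same cells.

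The Dnmt TKO library was near Ctrl in the Zscan4 stretch and far from it in the Tcstv stretch. It is 1 library, its own spread was not measured, and its values are given without a test. In the Zscan4 stretch it was at 0.960, against 0.961 in long-term Ctrl, and none of its 16 bins differed from the long-term Ctrl mean by 0.5 or more on the log2 scale (range -0.17 to 0.18). Such bins were few over the whole genome too, 0.876% lower and 2.4% higher, so finding none in 16 is near the share of all bins. In the flank on the centromeric side 4 of 20 bins, which overlap the vomeronasal receptor genes Vmn2r47 to Vmn2r50, were higher by 0.5 or more. The highest of them was at 2.22 in Dnmt TKO and at 0.691 to 0.996 in the other 10 libraries.

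In the Tcstv stretch the Dnmt TKO library was at 1.13, or 0.741 of long-term Ctrl. It was lower by 0.5 or more (log2) in 6 of 15 bins, against 0.876% of all bins, and higher by as much in 2 of 15, against 2.4%. It lay below all 10 other libraries in 10 of the 15 bins, against 14.2% of all bins. Bin 1 was at 2.66, which is 0.389 of the long-term Ctrl mean. Bins 6, 7 and 8 were at 0.462, 0.789 and 0.744, and their partners in the inverted repeat, bins 13, 12 and 11, at 0.492, 0.783 and 0.770. The 2 central bins, 9 and 10, went the other way, at 1.80 and 1.48, above all other libraries. The bin of Tcstv1 was thus at 0.716 of long-term Ctrl, and the bin of Tcstv3 at 1.19 of it.

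The partners of the inverted repeat had similar ratios in Dnmt TKO. Relative to long-term Ctrl, bins 6 and 13 were at 0.452 and 0.450, bins 7 and 12 at 0.716 and 0.704, bins 8 and 11 at 0.728 and 0.702, and bins 9 and 10 at 1.70 and 1.48. Since between 53.0% and 80.6% of the words of these bins recur in the partner, the depths of a pair are not independent of each other. The arms were at 0.673, the centre at 1.64 and the 8 bins together at 0.915, against 1.06 in long-term Ctrl. Bins 2 to 5, where most words are unique, were at 0.985, against 1.11. The last bin of the flank was at 1.00 in Dnmt TKO, below the 1.36 to 1.74 of the other libraries.

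**Figure D4:**
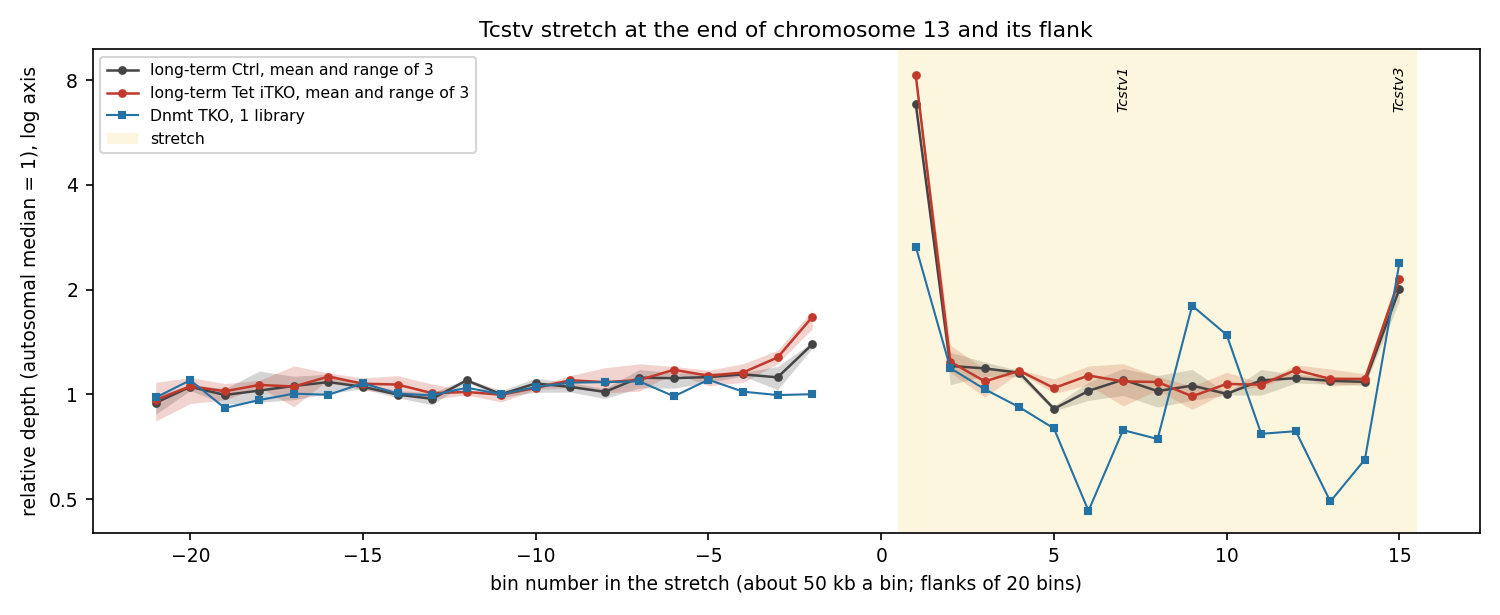
Relative depth (y axis, log axis, autosomal median = 1) along the Tcstv stretch (shaded, bins 1 to 15) and the flank of 20 bins before it (x axis, bin number); the empty space is the length without bins. Lines and bands are the mean and range of the 3 long-term libraries of Ctrl and of Tet iTKO, and squares are the Dnmt TKO library. Bin 1 stands at 6.84 in long-term Ctrl, 8.26 in long-term Tet iTKO, and at 2.66 in the Dnmt TKO library, and the Dnmt TKO line dips in bins 6 and 13 and peaks in bin 9.

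**Figure D5:**
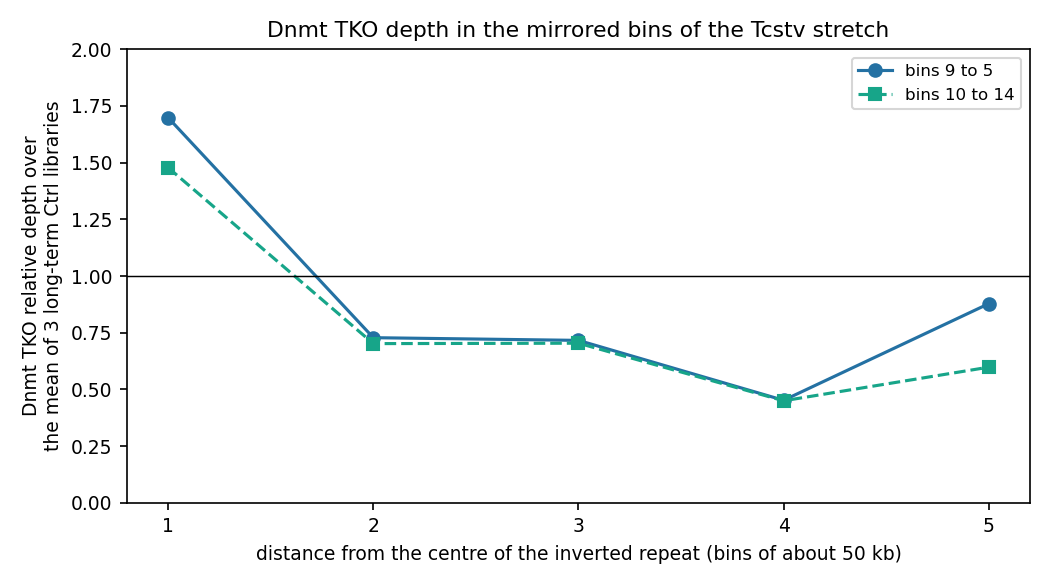
Relative depth of the Dnmt TKO library over the mean of 3 long-term Ctrl libraries (y axis) against the distance from the centre of the inverted repeat, in bins (x axis). Circles are bins 9 to 5 and squares are bins 10 to 14. The lines of both sides run close together, from 1.70 and 1.48 at the centre to 0.452 and 0.450 in the fourth bins, and part in the fifth at 0.878 and 0.598.

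Other genes of the 2-cell-like state were looked up by the bin that holds most of each gene. Of 37 genes on the list, 36 had a tested bin, in 31 different bins. They were 7 activators or regulators of the state, 10 silencing or chromatin factors and 19 targets, among which Zscan4a, Zscan4b and Zscan4e lie in the Zscan4 stretch itself. None of these genes lay in a bin called between the long-term groups, between stages or between genotypes in the early libraries. Over all bins, 0.136% were called between the long-term groups and 0.0668% between genotypes in the early libraries. Between stages the share was 0.0897% in Ctrl and 0.0376% in Tet iTKO. With shares this low, a list of 31 bins would rarely hold a called one. At an unadjusted p of 0.05, 7 of the 36 genes had a difference between the long-term groups, against 6.08% of all bins. The count is of genes while the share is of bins, so the 2 are not like for like. Of these genes, Pramel6 and Pramel7 share a bin, and Zscan4a is in bin 3 of the Zscan4 stretch, described above. Usp17ld was lower in Tet iTKO. Pramel6, Pramel7, Zscan4a, Tdpoz4, Zmym2 and Ehmt2 were higher. The log2 difference between the long-term groups ran from -0.21 to 0.20 with a median of 0.01, and the smallest adjusted p was 0.688 (limma). The Dnmt TKO library was lower by 0.5 or more in none of these genes (0.876% of all bins) and higher in 2 (2.4% of all bins). These 2 were the 2-cell-stage BTB-domain genes Tdpoz3 (0.76) and Tdpoz4 (1.37), which were picked out after their values had been seen.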

How the data were processed

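The submitters sequenced bulk DNA single-end. Per the study's methods, the authors trimmed reads, mapped those of at least 70 bases to mm10 (BWA-mem) and dropped optical duplicates (Picard MarkDuplicates). The deposited coverage (depth) is a signal per bin; the values carry the library's own depth and no correction for mappability or base composition. The deposited log2 column equalled the log2 of the depth to within 4.05e-05 and was not used further. Of 3432 bin values under 400 bases, 95.4% were multiples of 50 bases, which the stated minimum read length does not account for, so numbers of reads are conditional on 50 bases a read. Reads that fit several copies were placed by the aligner, so the depth of a repeated gene is shared among its copies.

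Depth was divided by the autosomal median of the library. Autosomal bins with a mean relative depth of at least 0.1 were tested on log2(relative depth + 0.01) with limma 3.58.1 (R 4.3.3; Benjamini-Hochberg adjustment, threshold 0.05), long-term Tet iTKO against long-term Ctrl, and in 10 libraries by genotype and stage. The pseudocount understates fold changes of low bins. Stretch means were compared with exact permutation tests. The fit of stretches of 16 bins, and the values without the deepest bin, were added after seeing the data. In data simulated with reads of 50 bases, 4 of 47924 bins were false calls. Uniqueness was counted over all 50-base words of GRCm38 (70-base words were added after seeing the data), both strands; genes are from GENCODE M21. Scripts ran in Python 3.11.15 with Biopython 1.88, statsmodels 0.14.6, scipy 1.17.1, pandas 2.3.3 and numpy 2.4.6.

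The named bins were those of the 5 genes and of other Zscan4 or Tcstv genes, the deepest and shallowest bin of each stretch, and any called bin. Members, lists and tests were chosen with earlier results of these data known. Alternatives covered the pseudocount, filters, GC correction, scaling, variance model, summary, flanks, replicate block and leaving out libraries.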

Additional observations from a re-analysis of the deposited data

How the results depend on the processing

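The differences of the Zscan4 and Tcstv stretches between the long-term groups kept their direction under all settings tried. The Zscan4 difference ran from 0.0677 to 0.0922, and the Tcstv difference from 0.116 to 0.134, when each long-term library was left out in turn. Long-term minus early was near 0 and changed sign. In Zscan4 it was -0.00647 relative to the flanks. In Tcstv it was 0.0111 after GC correction, 0.0226 as a median over bins, 0.00243 without the deepest bin, and from -0.00499 to 0.00405 with 1 long-term library left out. Between the long-term groups the count of called member bins was 0 under all settings (smallest adjusted p 0.0792) but 1 with a trended and robust variance, in both fits (0.144% and 0.152% of all bins), and also 1 in the early libraries (0.1%). The replicate numbers did not pair the libraries (correlations of -0.00506 to 0.00191), and with the replicate block 0 member bins were called (smallest adjusted p 0.167).

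Among stretches of 16 bins, leaving out libraries gave log2 differences from 0.0960 to 0.131 for Zscan4 (adjusted p 0.00355 to 0.0673) and from 0.105 to 0.122 for Tcstv (1.18e-04 to 0.0252). Without the deepest bin the Tcstv values were 0.039 in both the 6-library and the 10-library fit (adjusted p 0.324 and 0.314). Long-term minus early in Ctrl reversed in Tcstv to 0.0018 after GC correction and to 0.0010 without that bin. The cause was not tested. In simulations that take reads as 50 bases long, 54% of changes of 0.3 (log2) in 1 bin were called; longer reads would mean fewer reads and fewer calls, and relative depth cannot say which copy of a repeat changed.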
